A study of Mus musculus with 12 samples.

Results

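The spliceosome is built from small nuclear ribonucleoproteins (snRNPs) and from proteins that join them on the pre-mRNA. The genes described here encode its Sm and Lsm ring proteins, the Snrp proteins particular to the U1 and U2 snRNPs, the SF3a and SF3b proteins of the U2 snRNP, and the serine/arginine-rich (SR) splicing factors. Members were taken by gene symbol, that is, every gene whose symbol begins with Snrp, or with Lsm, Sf3a, Sf3b or Srsf and a digit, without Lsm10 and Lsm11, and 43 of the 24255 genes in the table met this rule. They fell into 8 Sm core ring genes, 8 Lsm ring genes, 3 other Lsm-domain genes, 4 U1 and U2 Snrp genes, 9 SF3a and SF3b genes and 11 SR protein genes. Transcripts were measured by RNA-Seq in mouse oocytes at the germinal vesicle (GV) stage, with 3 libraries of 20 oocytes in each of 4 groups. WT females were the controls. D166G-Dpagt1 mutant (MUT) females carried the ENU-induced missense mutation in every cell of the body. GcKO females were Dpagt1F/F Gdf9CRE/+, in which Cre is made in oocytes from the primordial follicle stage, and AmcKO females were Dpagt1F/F Amhr2CRE/+, in which Cre is made in granulosa cells and the oocyte keeps its floxed alleles. All mice were C57BL/6 by label, 3 weeks old and primed with 5 IU of PMSG, a gonadotropin that drives follicle growth, 46 h before collection. Whether the libraries of a group came from different females is not given in the sources used here, so p-values measure the spread between these libraries, which may be technical.

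In the nucleus, Sm proteins form a closed ring around the U1, U2, U4 and U5 RNAs, and Lsm2 to Lsm8 form the like ring around U6 RNA. When Lsm1 takes the place of Lsm8, the ring works in the cytoplasm instead, where it binds the ends of deadenylated mRNAs and promotes their decapping. SF3a and SF3b hold the U2 snRNP at the branch site, and SR proteins bind exons and help to select splice sites. GV-stage oocytes close to full growth turn transcription down and live on stored maternal transcripts, so a transcript level there reflects both what was stored and what was degraded.

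The targeted gene, Dpagt1, was listed at 0 FPKM (fragment number relative to the transcript's length and the library's mapped fragments) in all 3 WT libraries, at 0.878, 0.408 and 0.985 FPKM in MUT, at 0, 0.366 and 0 FPKM in GcKO and at 0 in all 3 AmcKO libraries. It therefore gave no check of the GcKO label. FPKM values hold no counts, so the depth behind a value is unknown. Library totals of FPKM ranged from 1167362 to 1226005 in WT, from 589617 to 611597 in MUT, from 482314 to 684212 in GcKO and from 883256 to 1107925 in AmcKO. The most common ratio of a library's low values above 0 to those of MUT replicate 2 was 2.28 to 2.66 in WT. It was 1 to 1.21 in MUT, with MUT replicate 2 set to 1, 0.9 to 1.5 in GcKO and 1.21 to 1.5 in AmcKO. This ratio was taken as an estimate of the relative worth of 1 fragment, which could not be read directly. If it holds, low transcripts are less precise in WT. All 12 oocyte markers were above 1 FPKM in every library, and against WT 4 of them were lower in MUT and 3 in GcKO, with 1 higher in each. Their summed FPKM ranged from 36300 to 40700 in WT, from 15000 to 15700 in MUT, from 13800 to 19900 in GcKO and from 28700 to 37700 in AmcKO. Dppa3, at 7940 to 30100 FPKM across the libraries, weighs most in this sum, and no other marker exceeded 4640 FPKM. The library totals of FPKM given above differ between the groups as well. Of 12 granulosa cell markers, Amh, Amhr2 and Foxl2 were listed at 0 in all libraries and only Cyp19a1 was above 1 FPKM in all of them, and the list's summed FPKM ranged from 17.6 to 23.1 in WT, from 14.7 to 27.2 in MUT, from 15.1 to 28.9 in GcKO and from 11.5 to 22.7 in AmcKO. Without Cyp19a1 the sum was 2.53 to 3.93 in WT and 1.54 to 3.45 in AmcKO. It was 5.16 to 13.8 in MUT and 5.34 to 8.45 in GcKO, above every WT and AmcKO library. Of the 6 granulosa cell markers tested, 2 (Inha and Hsd17b1) were higher in MUT than in WT and 0 in GcKO, and the part of either list in the results below was not tested.

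The members were not listed at equal FPKM levels. How far these levels follow the stored amounts was not tested, and some members, Snrpf among them, share sequence with other loci, as given below. The subunits of a ring stand in equal numbers in the assembled particle, but their FPKM levels did not. In WT oocytes Snrpe, Snrpd2, Snrpd1 and Snrpg had means of 1220 ± 168, 1140 ± 137, 679 ± 29.7 and 622 ± 173 FPKM (SD, n = 3), whereas Snrpd3 had 43.3 ± 19.8, Snrpf 5.18 ± 4.93 and Snrpb 4.4 ± 2.78 FPKM. Snrpn, a close relative of Snrpb that is best known from neurons, stayed below 1 FPKM in every library, with a highest value of 0.928. Among the Lsm ring genes, Lsm3 alone gave 29.7 to 33.4% of the FPKM summed over all members in WT, with a mean of 3030 ± 215 FPKM, followed by Lsm7, Lsm5 and Lsm2 with 513 ± 142, 511 ± 87.1 and 241 ± 5.88 FPKM. Lsm7 and Lsm5 did not differ beyond their spread. Lsm1, Lsm6, Lsm4 and Lsm8 had WT means between 34.7 and 61 FPKM, and their WT values overlapped in part.

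Sf3b5, a small SF3b subunit, had 805 ± 80.9 FPKM in WT, and the other 8 SF3a and SF3b genes had means of 0.776 to 31.2 FPKM. Snrpb2 and Snrpa1, which encode the U2-B″ and U2-A′ proteins that together bind the U2 RNA, had 207 ± 5.37 and 140 ± 20.3 FPKM in WT. The SR proteins had WT means of at most 51.5 FPKM, the highest being Srsf3 and Srsf10, the latter with 34 ± 5.47 FPKM. Srsf12 never exceeded 0.249 FPKM, and Sf3a2 was listed at 0 in all MUT and all AmcKO libraries. With Snrpn, Srsf12 did not reach 1 FPKM in any library, so 41 of the 43 members were tested.

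**Figure D1:**
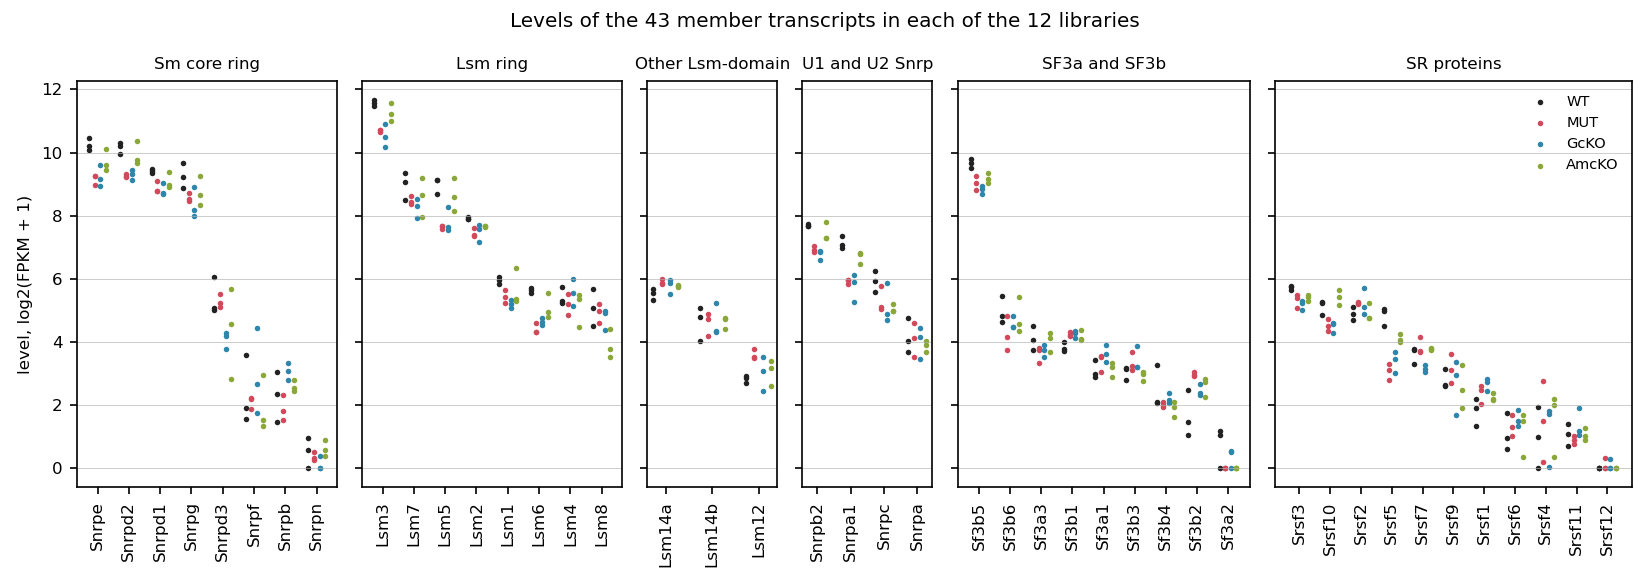
Levels of the 43 member transcripts as log2(FPKM + 1), by family and in order of the WT mean, with 1 point per library and colours for the 4 groups of 3. Lsm3, Snrpe and Snrpd2 stand at 1140 to 3030 FPKM in WT, while Snrpf and Snrpb of the same Sm ring stand near 5.

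Differences between groups were estimated with limma, a linear model that shares the spread across genes, on log2(FPKM + 1) in all 12 libraries, and a call needed an adjusted p below 0.05 (Benjamini-Hochberg over all 11233 genes tested). On the values as deposited, 12 of 41 members were lower in MUT than in WT and 1 was higher, and 28 were not called. Over all tested genes, 11.3% were lower and 9.46% higher in MUT. In GcKO, 14 members were lower than in WT and 0 were higher, against 11.4% and 8.71% of all tested genes, with 22 members at an unadjusted p under 0.05 and 1 called higher by limma without its variance trend. Members called lower in both were 11, namely Snrpe, Snrpd2, Snrpd1, Lsm3, Lsm5, Lsm6, Snrpb2, Snrpa1, Sf3b5, Srsf5 and Srsf10. Both comparisons use the same 3 WT libraries. In both, the replicate numbers also differ between the groups, so genotype and number set cannot be told apart. All 3 MUT values lay below all WT values in 15 members and all 3 GcKO values in 16, beside 16.9% and 16% of tested genes, and above them in 5 and 3 members, beside 20.2% and 18.2%. The median member difference was -0.40 in MUT and -0.38 in GcKO on the log2(FPKM + 1) scale, beside 0.12 over all tested genes in both. As FPKM are relative values from pooled oocytes, fewer cells with a transcript, less of it per cell and a smaller share of the library cannot be told apart.

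The members called lower were mostly abundant transcripts, and abundant transcripts as a whole were lower in MUT and GcKO. Of the 882 genes with a mean of at least 100 FPKM over the 12 libraries, 68.1% were lower in MUT and 71% in GcKO, and of the 10 members in that class 8 were lower in each. Between 10 and 100 FPKM, 20.2% of all genes were lower in MUT and 20.4% in GcKO, and 4 and 6 of 18 members. Under 10 FPKM, 0 of 13 members were lower in either. Across the 41 members, the difference from WT and the mean level had a Spearman correlation of -0.57 in MUT and -0.69 in GcKO, beside -0.23 and -0.25 across all tested genes, and the points share the libraries and the WT values. In AmcKO, where no member was called, it was -0.38, beside -0.14 across all tested genes. The share of the library's FPKM taken up by the 43 members lay between 0.738 and 0.876% in WT, between 0.912 and 0.954% in MUT, between 0.85 and 0.945% in GcKO and between 0.722 and 0.88% in AmcKO, so it was not lower in MUT or GcKO.

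**Figure D2:**
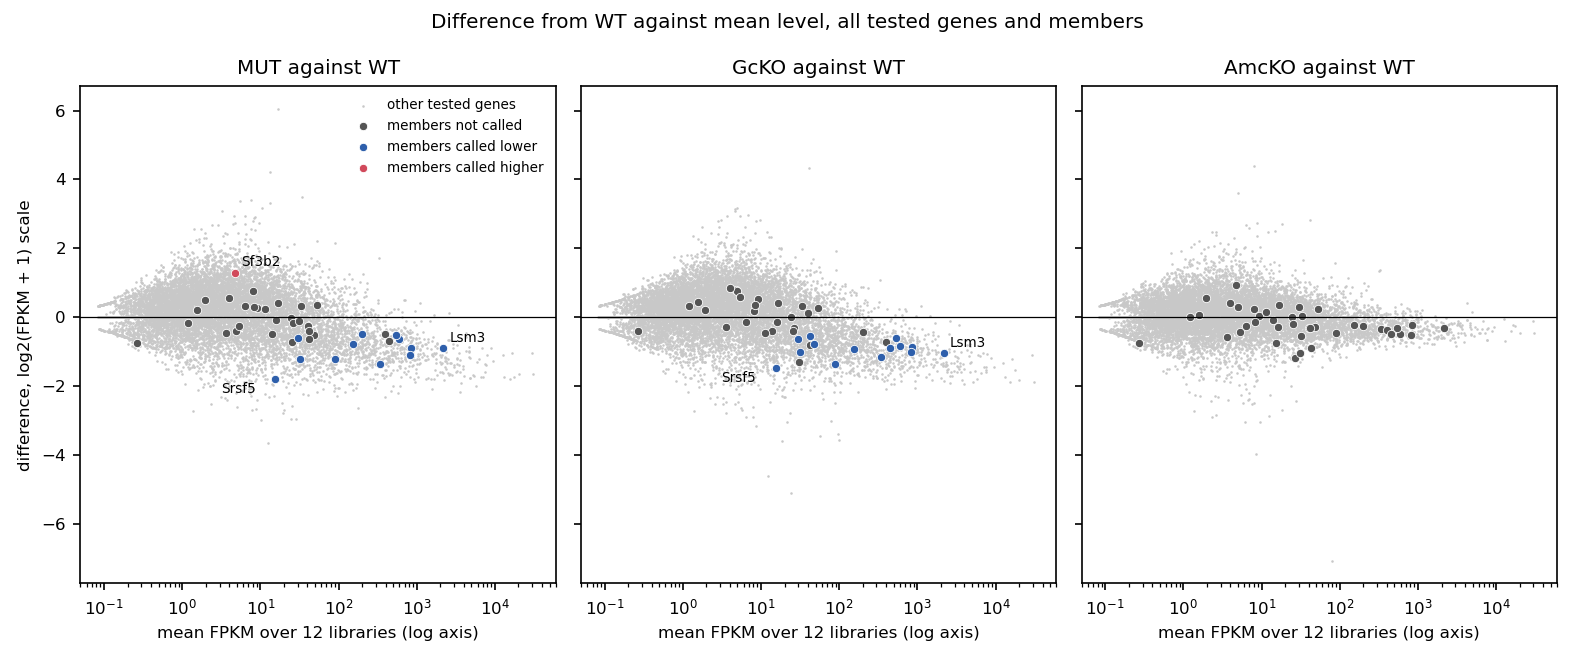
Difference from WT on the log2(FPKM + 1) scale (vertical axis) against the mean FPKM over 12 libraries (horizontal log axis), for MUT, GcKO and AmcKO, as deposited, with all 11233 tested genes in grey and the members as larger points. Of the members called lower, 8 in each of MUT and GcKO have a mean of at least 100 FPKM, where 68.1% and 71% of all genes are lower, and 4 and 6 lie between 10 and 100 FPKM. Srsf5 has the lowest difference of the members in MUT and GcKO, and no member is called in AmcKO. With each library scaled to the same FPKM sum, 17 members were higher and 1 lower in MUT.

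How the libraries are scaled decided most of these calls. With median-of-ratios scaling, the counts of members were again 12 lower and 1 higher in MUT and 14 and 0 in GcKO. This scaling hardly changed the values, with an all-gene median of 0.11 in MUT and 0.12 in GcKO. Its calls therefore add little to those on the values as deposited. With quantile normalization, 3 members were lower and 4 higher in MUT, beside 6.41% and 6.7% of all tested genes, and 3 lower and 1 higher in GcKO, beside 5.92% and 6.15%. With each library scaled to the same FPKM sum, which raises the median of all genes from 0.12 to 0.68 in MUT and to 0.71 in GcKO, 1 of 40 tested members was lower and 17 were higher in MUT, beside 2.11% and 39.7% of all tested genes, and 0 and 14 in GcKO, beside 2.02% and 40.8%. The member medians of 0.51 and 0.60 lay below the all-gene medians. Srsf5, Snrpa1 and Lsm6 were lower in both MUT and GcKO as deposited, with median-of-ratios scaling, with quantile normalization and after a loess correction for mean abundance that was added after seeing the data. That correction left member medians of -0.02 in MUT and 0 in GcKO. Among all tested genes it left 798 lower and 765 higher in MUT, and 755 and 686 in GcKO. Under the same FPKM sum only Srsf5 in MUT was called lower, and relative to the all-gene median Srsf5, Snrpa1 and Lsm6 stood at -1.54, -0.90 and -0.94 in MUT. Sf3b2 was higher in MUT under all 4 scalings, but the difference Sf3b2 MUT against WT was not called after the correction for mean abundance (1.02, limma, adjusted p = 0.0557).

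**Figure D3:**
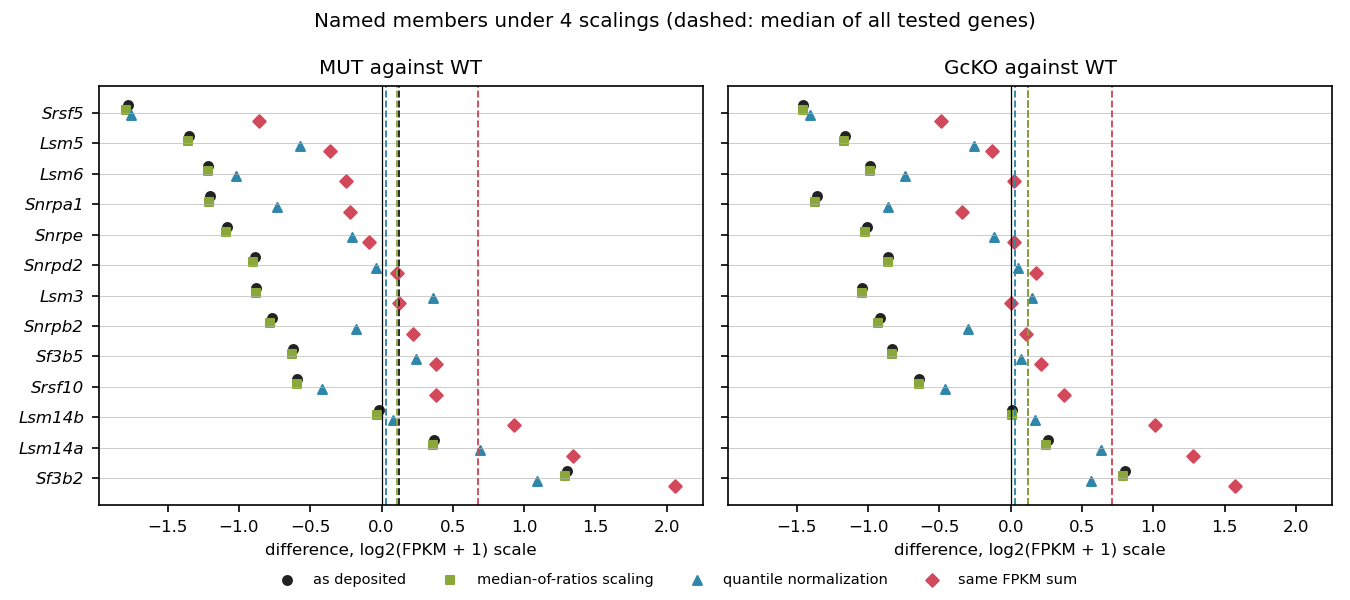
Difference from WT on the log2(FPKM + 1) scale for 13 members in MUT and GcKO under 4 scalings, shown by symbol, with the median of all tested genes under each scaling as a dashed line. Srsf5 lies left of its dashed line under every scaling, at -1.78, -1.79, -1.76 and -0.86 in MUT, while Snrpd2, Lsm3, Snrpb2, Sf3b5 and Srsf10 cross 0 when libraries are given the same FPKM sum.

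SR proteins held the largest difference of any member. Srsf5, an SR protein that binds exonic splicing enhancers, had 30.9, 32.3 and 21.6 FPKM in WT replicates 4, 5 and 6, 8.83, 5.87 and 7.72 in MUT replicates 1, 2 and 3, 7.14, 9.97 and 11.9 in GcKO and 15.1, 18.1 and 15.8 in AmcKO. The lowest WT value lay above the highest value of each other group, and AmcKO lay between WT and the other two. Srsf5 differed from WT by -1.78 ± 0.24 on the log2(FPKM + 1) scale in MUT (limma, adjusted p = 0.000254) and by -1.46 ± 0.24 in GcKO (adjusted p = 0.000914), and leaving out any library kept both calls. The difference in AmcKO, -0.74 ± 0.24, did not pass the test (limma, adjusted p = 0.179).

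Srsf10, an SR-like factor that represses splicing when dephosphorylated, followed another order. Its values were 37.6, 27.7 and 36.6 FPKM in WT, 21.8, 19.5 and 25.4 in MUT, 22.6, 23 and 18.6 in GcKO and 49.3, 35.3 and 42.3 in AmcKO. MUT and GcKO lay below every WT and every AmcKO library. The differences from WT were -0.59 ± 0.20 in MUT and -0.64 ± 0.20 in GcKO (limma, adjusted p = 0.048 and 0.0337), and each was called in only 1 of 6 fits that left out 1 library, losing the call most clearly without MUT replicate 2 (adjusted p = 0.158) and without WT replicate 4 (adjusted p = 0.101). Under the same FPKM sum both turned to 0.38 and 0.37 and were not called.

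Srsf3, a small SR protein that oocytes need to mature, was at 48.6, 53.4 and 52.4 FPKM in WT, 44.1, 32.5 and 40.7 in MUT, 31.3, 37 and 38 in GcKO and 38.3, 43.5 and 42.2 in AmcKO. All libraries of the 3 other groups lay below WT. Only GcKO passed the test, at -0.53 ± 0.17 (limma, adjusted p = 0.0364), a call lost in 5 of the 6 fits without 1 library, with an adjusted p of 0.12 without GcKO replicate 1, and turned to 0.49 and called higher (adjusted p = 0.0369) under the same FPKM sum. The MUT difference was -0.40 ± 0.17 (adjusted p = 0.106). The other 7 tested SR protein genes, Srsf1, Srsf2, Srsf4, Srsf6, Srsf7, Srsf9 and Srsf11, were called in neither MUT nor GcKO as deposited, and under the same FPKM sum 4 of 10 SR genes were higher and 1 lower in MUT, and 3 higher and 0 lower in GcKO.

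Of the U2-specific pair, Snrpa1 was at 163, 125 and 132 FPKM in WT, 56.3, 61.6 and 61.8 in MUT, 37.7, 68.5 and 59.1 in GcKO and 110, 111 and 87 in AmcKO. All 6 MUT and GcKO values lay below the lowest AmcKO value, and all AmcKO values lay below WT. Its differences from WT were -1.20 ± 0.21 in MUT and -1.36 ± 0.21 in GcKO (limma, adjusted p = 0.00127 and 0.000556). Snrpb2, its partner, was at 202, 205 and 213 FPKM in WT, 113, 120 and 130 in MUT, 95.8, 114 and 117 in GcKO and 157, 220 and 157 in AmcKO. It differed from WT by -0.77 ± 0.16 in MUT and by -0.92 ± 0.16 in GcKO (limma, adjusted p = 0.0039 and 0.00123), and turned to 0.22 and 0.11, not called, under the same FPKM sum. Both genes kept their calls with any library left out. The U1 proteins Snrpa and Snrpc were not called in either, at -0.08 and -0.62 in MUT.

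Of 7 tested Sm ring genes, 3 were lower in MUT and 4 in GcKO as deposited, while 0 were lower under quantile normalization or the same FPKM sum, the latter giving 1 higher in MUT and 2 in GcKO. Snrpe, the SmE protein gene, was at 1170, 1090 and 1410 FPKM in WT, 614, 499 and 613 in MUT, 494, 568 and 773 in GcKO and 703, 1100 and 786 in AmcKO. Snrpd2 was at 989, 1190 and 1250 FPKM in WT, 591, 643 and 607 in MUT, 559, 637 and 690 in GcKO and 808, 1310 and 869 in AmcKO. For both genes MUT and GcKO lay below all WT libraries, while AmcKO overlapped WT through replicate 5. The difference from WT of Snrpe was -1.08 ± 0.20 in MUT and -1.01 ± 0.20 in GcKO (limma, adjusted p = 0.00208 and 0.00314), and that of Snrpd2 -0.89 ± 0.18 and -0.86 ± 0.18 (adjusted p = 0.0035 and 0.00432). Snrpd2 turned to 0.11 and 0.18 under the same FPKM sum, and Snrpe to -0.09 in MUT and 0.02 in GcKO, none of them called.

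Snrpd1 was lower in MUT and in GcKO, at -0.52 ± 0.16 and -0.59 ± 0.16 (limma, adjusted p = 0.0352 and 0.0196), and was the Sm gene called higher in MUT under quantile normalization (0.37, adjusted p = 0.039). It lost the MUT call in 5 of 6 fits without 1 library and the GcKO call in 4 of 6, with highest adjusted p of 0.122 (without MUT replicate 2 or 3) and 0.0756 (without GcKO replicate 2). Snrpg was lower in GcKO only, at -0.89 ± 0.27 (adjusted p = 0.034), with a call lost in 4 of 6 such fits and an adjusted p of 0.147 without GcKO replicate 1, and its GcKO and WT values overlapped. The MUT difference of Snrpg was -0.67 ± 0.27 (adjusted p = 0.0997). Snrpd3, at 17.2, 12.8 and 18.3 FPKM in GcKO, lay below its WT values of 32.4, 31.4 and 66.2 and its MUT values of 36.8, 33.6 and 44.7, but the GcKO difference from WT, -1.30 ± 0.52, was not called (adjusted p = 0.0911), and was called without AmcKO replicate 5 in the fit (adjusted p = 0.0303).

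Of the 8 Lsm ring genes, 4 were lower in MUT and 4 in GcKO as deposited, 1 in each under quantile normalization, and 0 under the same FPKM sum, where 3 were higher in MUT and 2 in GcKO. Lsm6, a subunit of both Lsm rings, was at 48.8, 45.4 and 51.8 FPKM in WT, 19.1, 18.8 and 23.4 in MUT, 23.8, 22.4 and 25.9 in GcKO and 26.4, 46 and 30.1 in AmcKO. All MUT and GcKO values were below the lowest WT and AmcKO values. It differed from WT by -1.22 ± 0.20 in MUT and -0.99 ± 0.20 in GcKO (limma, adjusted p = 0.00111 and 0.00404). Lsm5 was at 411, 560 and 563 FPKM in WT, 202, 204 and 188 in MUT, 197, 187 and 309 in GcKO and 284, 580 and 383 in AmcKO. Its differences were -1.35 ± 0.25 and -1.16 ± 0.25 (limma, adjusted p = 0.00188 and 0.00472), and became -0.57 and -0.26, not called, under quantile normalization.

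Lsm3, the most abundant member, was at 3030, 2820 and 3250 FPKM in WT, 1680, 1610 and 1670 in MUT, 1160, 1450 and 1920 in GcKO and 2370, 3050 and 2030 in AmcKO. MUT and GcKO lay below all WT and AmcKO libraries. The differences were -0.88 ± 0.19 in MUT and -1.04 ± 0.19 in GcKO (limma, adjusted p = 0.00519 and 0.00181), but quantile normalization turned them to 0.36, called higher (adjusted p = 0.011), and 0.15, not called, and the same FPKM sum to 0.12 and 0. Leaving out any library kept the calls of Lsm3, Lsm5 and Lsm6 in both comparisons. Lsm2 was lower in MUT only (-0.47 ± 0.15, adjusted p = 0.0435, limma) and Lsm1 in GcKO only (-0.76 ± 0.24, adjusted p = 0.0393), and both calls were lost in each of the 6 fits that left out 1 library, with adjusted p up to 0.138 (without MUT replicate 3) and 0.124 (without GcKO replicate 1). The Lsm1 difference in MUT was -0.51 ± 0.24 (adjusted p = 0.151), which was called without AmcKO replicate 5 in the fit (adjusted p = 0.0363). Lsm7 was at 363, 530 and 646 FPKM in WT, 341, 332 and 390 in MUT, 242, 315 and 368 in GcKO and 406, 587 and 245 in AmcKO. Its groups overlapped, and it was not called, but without AmcKO replicate 5 in the fit it was lower in GcKO (-0.71, adjusted p = 0.0481).

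The Lsm-domain proteins that form no ring were not lower. Lsm12 lay above all WT libraries in MUT, at 0.77 ± 0.29, but was not called (limma, adjusted p = 0.0799), and its GcKO and WT values overlapped. Lsm14a, a partner of the translational repressor and decapping machinery, was at 45.8, 39.5 and 50.6 FPKM in WT, 56.8, 56 and 62.6 in MUT, 61, 45.1 and 57.7 in GcKO and 51.9, 54 and 54.8 in AmcKO. MUT and AmcKO lay above all WT libraries. As deposited the MUT difference of 0.37 ± 0.16 was not called (limma, adjusted p = 0.13), and it reached 0.69 and was called under quantile normalization (adjusted p = 0.0172), as was GcKO at 0.63 (adjusted p = 0.0292). Lsm14b, which oocytes need for maturation, was at 15.2, 26.5 and 32.8 FPKM in WT, 25.7, 17.3 and 28.4 in MUT, 37, 18.8 and 19.4 in GcKO and 20.2, 25.8 and 25.3 in AmcKO. Its groups overlapped throughout, with a MUT difference of -0.02 ± 0.31 (adjusted p = 0.992), which became 0.93 and was called higher (adjusted p = 0.0498) under the same FPKM sum.

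SF3a and SF3b genes moved in both directions. Sf3b5 was at 724, 886 and 804 FPKM in WT, 522, 611 and 446 in MUT, 413, 490 and 455 in GcKO and 573, 648 and 526 in AmcKO. All other libraries lay below WT. It differed from WT by -0.62 ± 0.15 in MUT and -0.83 ± 0.15 in GcKO (limma, adjusted p = 0.0115 and 0.00198), lost the MUT call without MUT replicate 3 (adjusted p = 0.0641), and turned to 0.24 and 0.07 under quantile normalization and to 0.38, called higher (adjusted p = 0.0315), and 0.21 under the same FPKM sum. Sf3b2, the large SF3b subunit that contacts the pre-mRNA beside the branch site, was at 1.05, 1.78 and 4.59 FPKM in WT, 6.52, 6.69 and 7.29 in MUT, 5.38, 4.23 and 4.02 in GcKO and 6.02, 5.68 and 3.79 in AmcKO. MUT lay above every other library, and the WT values were spread from 1.05 to 4.59. Sf3b2 differed from WT by 1.30 ± 0.34 in MUT (limma, adjusted p = 0.0156), a call lost without WT replicate 4 (adjusted p = 0.0562) or without MUT replicate 3 (adjusted p = 0.0547), and its level is low in WT, where 1 fragment was estimated to weigh most. The GcKO difference was 0.80 ± 0.34 (adjusted p = 0.115), and it was called higher without WT replicate 6 (1.21, adjusted p = 0.014) and under the same FPKM sum. Sf3b6, which contacts the branch site adenosine, was at 24, 27.1 and 42.7 FPKM in WT, 27.3, 16.8 and 12.5 in MUT, 21.2, 27.1 and 21.4 in GcKO and 22.6, 41.8 and 19.4 in AmcKO, and was not called. The largest subunit gene, Sf3b1, had a mean of 13.2 ± 1.4 FPKM in WT and 17.9 ± 0.687 in MUT, not called as deposited and called higher at 1.35 under the same FPKM sum.

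**Figure D4:**
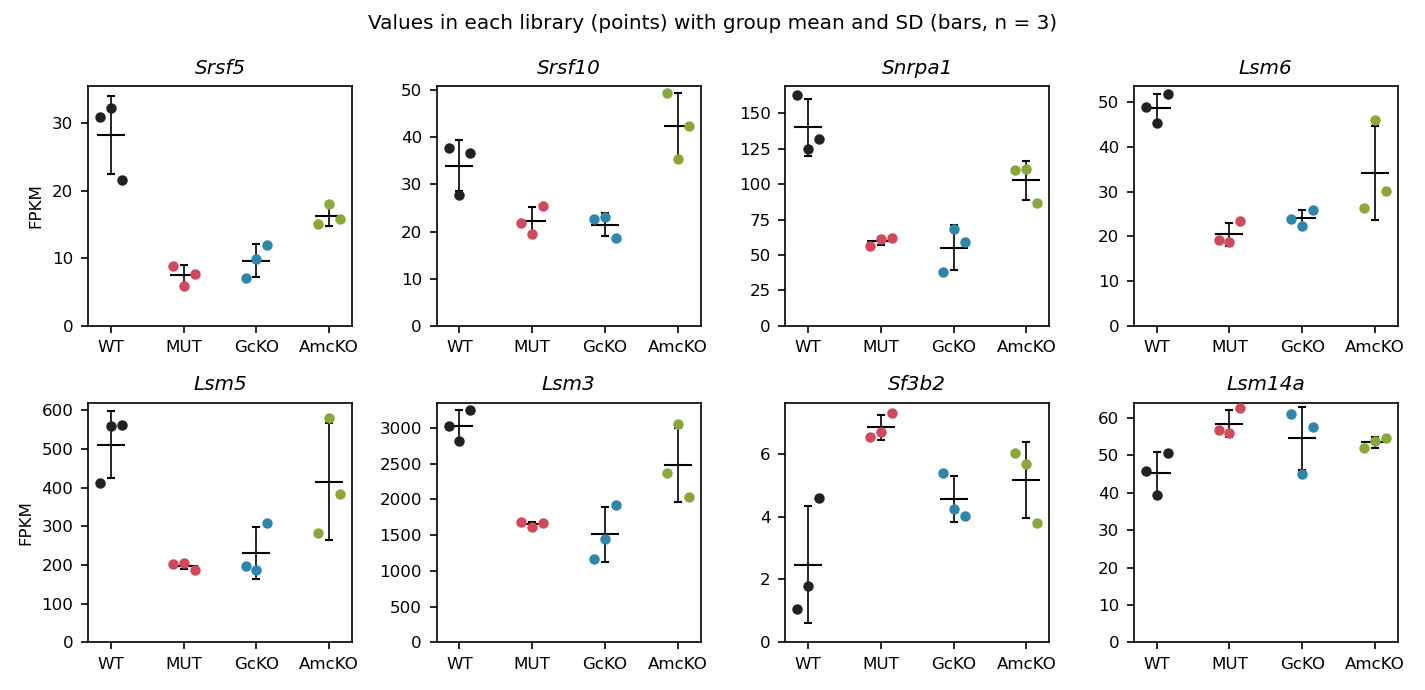
FPKM in each library for 8 members, with points for single libraries, horizontal bars for the group mean and whiskers for the SD (n = 3). Calls in this plot are against WT. Srsf5 is highest in WT and intermediate in AmcKO, Srsf10 is higher in WT and AmcKO than in MUT and GcKO, and Sf3b2 is highest in MUT. Values are as deposited, and under quantile normalization Lsm5 and Srsf10 are not called against WT and Lsm3 is higher in MUT than in WT, by 0.36.

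The promoters of the 3 members lower in both MUT and GcKO under every scaling but the same FPKM sum, and of Sf3b2, the member higher in MUT, are shown because these are the members on which the comparisons turn. Each is the RefSeq sequence (GRCm38.p6) of the 250 bases before the annotated start, 5′ to 3′ on the gene's strand, with matches on either strand in capitals. The motifs searched were the CCAAT box, the GC box with the letters GGGCGG, the ETS site with the letters CCGGAAG, the NRF1 core with the letters GCATGCGC, the E-box with the letters CACGTG, and the TATA box with the letters TATAAA. In GENCODE M21, Srsf5 spans chr12:80945504-80950507, Snrpa1 chr7:66059003-66074587, Lsm6 chr8:78804865-78821140 and Sf3b2 chr19:5273932-5295455 of this build, with 8, 9, 4 and 21 exons. The promoter window of Srsf5 is at chr12:80945249-80945498 (forward strand), Snrpa1 at chr7:66060086-66060335 (forward strand), Lsm6 at chr8:78821153-78821402 (reverse strand) and Sf3b2 at chr19:5295456-5295705 (reverse strand). The RefSeq start of Snrpa1 lies inside the GENCODE M21 span, so its window falls within that annotated gene and not before it.
Srsf5: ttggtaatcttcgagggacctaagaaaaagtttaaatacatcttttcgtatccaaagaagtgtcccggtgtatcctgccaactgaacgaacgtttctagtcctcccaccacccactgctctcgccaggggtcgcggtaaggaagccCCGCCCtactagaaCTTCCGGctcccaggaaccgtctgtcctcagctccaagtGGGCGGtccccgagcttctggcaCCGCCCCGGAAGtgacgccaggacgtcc
Snrpa1: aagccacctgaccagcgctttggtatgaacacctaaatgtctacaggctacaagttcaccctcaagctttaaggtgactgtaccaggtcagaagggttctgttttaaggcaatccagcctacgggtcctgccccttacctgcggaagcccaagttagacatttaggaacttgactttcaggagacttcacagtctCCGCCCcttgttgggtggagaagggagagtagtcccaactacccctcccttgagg
Lsm6: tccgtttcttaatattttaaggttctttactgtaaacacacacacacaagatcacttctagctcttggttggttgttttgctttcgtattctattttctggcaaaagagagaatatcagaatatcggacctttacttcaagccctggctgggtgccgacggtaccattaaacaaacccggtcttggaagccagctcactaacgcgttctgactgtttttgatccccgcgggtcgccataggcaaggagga
Sf3b2: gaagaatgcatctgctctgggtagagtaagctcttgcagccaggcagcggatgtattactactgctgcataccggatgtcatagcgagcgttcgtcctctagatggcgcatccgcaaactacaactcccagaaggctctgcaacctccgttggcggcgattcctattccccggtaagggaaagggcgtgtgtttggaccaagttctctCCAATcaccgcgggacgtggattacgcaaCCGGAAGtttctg
The Srsf5 window held 3 GC boxes and 2 ETS sites, of which 1 of each overlap, the Snrpa1 window 1 GC box, the Lsm6 window no match and the Sf3b2 window 1 CCAAT box and 1 ETS site, with a GC content of 56.8, 51.6, 44.8 and 54.4%. Promoters were found for 36 of 43 members. The ETS site was present in 4 of 12 promoters of members lower in MUT or GcKO and in 10 of 22 other tested members, beside 14.0% of 8522 promoters of all tested genes. GC boxes were in 7 of 12 and 16 of 22, beside 54.8% of all. CCAAT was in 5 of 12 and 6 of 22, beside 37.5%. TATAAA was in 1 of 12 and 3 of 22, beside 8.06%, GCATGCGC in 1 of 12 and 2 of 22, beside 4.62%, and CACGTG in 0 of 12 and 1 of 22, beside 8.24%. The YY1 core, searched by its letters like the others but not marked in the windows above, was in 0 of 12 and 0 of 22, beside 0.61%. These are matches of letters, not known binding sites.

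In maturing oocytes, stored mRNAs are polyadenylated through a cytoplasmic polyadenylation element (CPE) near the transcript end. TTTTAT or TTTTAAT stood in the last 100 nt of 2 of 15 members lower in MUT or GcKO and 7 of 26 other tested members, beside 19.3% of 10056 tested genes, in the GENCODE M21 transcripts. A poly(A) signal (AATAAA or ATTAAA) in the last 50 nt was found for 10 of 15, 22 of 26 and 77.9%. These are matches of letters, not known elements. In Lsm3 the match starts 8 nt from the transcript end, after its poly(A) signal, which starts 28 nt from the end. The 30 bases around the match are given for Lsm3 (chr6:91522596-91522625, forward strand), Snrpa1 (chr7:66074499-66074528, forward strand) and Lsm14a (chr7:34344670-34344699, reverse strand), the former pair lower and Lsm14a not called as deposited, with the match in capitals.
Lsm3: aaattaaatttgatgtttccttTTTTATta
Snrpa1: ctggtgataattTTTTAATaggaaccttga
Lsm14a: gccactttgtgtTTTTAATaaaggccatgg
Members lower in MUT or GcKO had a median transcript length of 1420 nt, beside 1779.5 nt for the other tested members and 2257 nt for all tested genes. The difference from WT and transcript length had a Spearman correlation of 0.49 in MUT and 0.41 in GcKO across the 41 members. It was 0.56 in AmcKO, where no member was called, and was not computed over all tested genes. After a loess correction for length, 11 members were lower in each of MUT and GcKO, and the share of all tested genes under this correction was not counted.

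Some members share sequence with other loci. Of the 43, 19 had at least 10% of the 50-nt words of their transcript in transcripts of another annotated gene and 12 had none. The share was 62.8% for Lsm7, 44.0% for Lsm5, 28.4% for Snrpe, 27.8% for Srsf5, 31.5% for Srsf3, 18.2% for Lsm3, 11.7% for Snrpd2 and 10.0% for Srsf10, and it was 89.5% for Snrpf. It was 8.34% for Snrpa1, 2.83% for Lsm6, 1.09% for Snrpb2, 4.6% for Sf3b2 and 0.372% for Sf3b5. How reads were divided between such copies is not given in the sources used here, so the levels of the first group are less certain. Snrpa1 overlaps Gm45213 and Lsm3 overlaps AC161456.1 on the same strand. Exons of 12 members overlap a gene on the opposite strand, among them Sf3b2 and Lsm14a, and the strand of the libraries is not stated, so reads of both genes cannot be told apart there.

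No member differed between WT oocytes and AmcKO oocytes, whose granulosa cells carry the deletion, by the test used. In AmcKO, 0 of 41 members were lower and 0 higher than in WT (limma, with 8 at an unadjusted p under 0.05 and 0 called without the variance trend), against 0.116% and 0.0979% of all tested genes. The median member difference was -0.26, beside 0.03 for all genes, and 7 members lay below and 2 above all WT libraries, beside 8.61% and 9.22% of tested genes. AmcKO replicate 5 was the highest of the 3 AmcKO libraries for 29 of 41 members, and its FPKM sum of 1107925 was the closest of the 3 to WT. Without it, 0 members were higher than WT, the member median was -0.44, and 1 member was lower, Lsm8 of the U6 ring (-1.44, limma, adjusted p = 0.0495), which is named after its values were seen. Of all tested genes, 90 were then lower and 45 higher in AmcKO than in WT. Lsm8 was at 32.4, 21.9 and 49.7 FPKM in WT and 12.7, 20.2 and 10.4 in AmcKO, with all AmcKO values below WT.

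No member was called between the whole-body mutant and the oocyte knockout, which does not show that their levels are the same. Between GcKO and MUT, 0 of 41 members were called (3 at an unadjusted p under 0.05 and 0 without the variance trend), beside 0.134% of all genes lower and 0.0712% higher in GcKO. The differences for the leading members were 0.32 ± 0.24 for Srsf5, -0.16 ± 0.21 for Snrpa1 and 0.23 ± 0.20 for Lsm6. Over the 41 members the difference ranged from -1.21 for Snrpd3 to 1.18.

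Against AmcKO, 4 members were lower in GcKO and 0 higher, beside 4.79% and 0.668% of all tested genes, and 5 were lower in MUT and 0 higher, beside 5.07% and 1.42%. With each library scaled to the same FPKM sum, 0 of 40 members were lower and 12 were higher in GcKO and 13 in MUT, beside 20.7% and 20.1% of all tested genes higher. These comparisons test whether the differences from WT are unequal, since WT is the same for all. The members lower in GcKO as deposited were Srsf10 (-0.95 ± 0.20, adjusted p = 0.0126), Snrpa1 (-0.92 ± 0.21, adjusted p = 0.0189), Snrpb2 (-0.69 ± 0.16, adjusted p = 0.0213) and Lsm3 (-0.73 ± 0.19, adjusted p = 0.0394, all limma). In MUT they were Srsf5 (-1.05 ± 0.24, adjusted p = 0.0183), Lsm5 (-1.01 ± 0.25, adjusted p = 0.0265), Srsf10 (-0.89 ± 0.20, adjusted p = 0.0145), Snrpa1 (-0.76 ± 0.21, adjusted p = 0.0427) and Snrpd2 (-0.66 ± 0.18, adjusted p = 0.0416). Only Srsf10 was called in both comparisons under quantile normalization, at -0.87 in GcKO and -0.83 in MUT, together with Srsf5 in MUT at -1.14, and the same FPKM sum turned Lsm3, Snrpb2 and Snrpd2 to 0.01, 0.05 and 0.03. Without AmcKO replicate 5, only Srsf10 was lower in GcKO and in MUT and Lsm8 was higher in MUT (1.29, adjusted p = 0.0449), with adjusted p of 0.138, 0.0758 and 0.0706 for Lsm3, Snrpb2 and Snrpa1 in GcKO. Of all tested genes, 305 were then lower and 35 higher in GcKO, and 317 and 91 in MUT. No call of the 9 held in all 6 fits that left out 1 library.

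Genes of the same machinery outside the symbol rule, from lists of the snRNP pathway, were counted beside all tested genes, of which 11.3% were lower and 9.46% higher in MUT and 11.4% and 8.71% in GcKO as deposited, and 39.7% and 40.8% higher under the same FPKM sum. Of 11 tested genes of Sm ring assembly, 2 were lower in MUT and 3 in GcKO as deposited and 0 higher, while quantile normalization gave 2 higher in MUT and 2 lower in GcKO and the same FPKM sum 6 and 5 higher. Snupn, the import adaptor of assembled snRNPs, had the largest called fall in GcKO, from a mean of 211 FPKM in WT to 111 in MUT and 81.2 in GcKO (-0.93 ± 0.16 and -1.37 ± 0.16, limma, adjusted p = 0.00114 and 0.000123). It was 0.07 in MUT and -0.34 in GcKO under the same FPKM sum. In MUT the largest called fall was that of Gemin6, a subunit of the SMN complex, at -1.18 (adjusted p = 0.00142), which was -0.19 under the same FPKM sum. Of 18 tested snRNP-specific proteins outside the rule, 4 were lower and 4 higher in MUT and 4 and 1 in GcKO as deposited, but 0 lower and 10 and 9 higher under the same FPKM sum. Nhp2l1, which binds the U4 RNA, had the largest called fall, -1.26 ± 0.18 in GcKO (limma, adjusted p = 0.000436) and -0.22 under the same FPKM sum, and Usp39, a tri-snRNP protein, the largest called rise, 1.28 ± 0.34 in MUT (adjusted p = 0.0166). In the minor spliceosome list of 8, 2 were lower and 1 higher in MUT and 1 and 1 in GcKO, where the U11/U12 proteins Zcrb1 and Pdcd7 stood at -1.09 ± 0.18 and 1.03 ± 0.23 (limma, adjusted p = 0.000851 and 0.00672). Zcrb1 was at -0.07 under the same FPKM sum, and Pdcd7 was higher in both under all 4 scalings.

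Among 6 tested SR protein kinases, 1 was lower and 2 higher in MUT, and the same in GcKO as deposited, while the same FPKM sum gave 4 higher in each. Clk1, a nuclear kinase of SR proteins, went from 141 FPKM in WT to 62.3 in MUT and 67.9 in GcKO (-1.16 ± 0.22 and -1.08 ± 0.22, limma, adjusted p = 0.00249 and 0.00392). It had values of 125, 146 and 91.2 FPKM in AmcKO and was -0.68 in MUT, called (adjusted p = 0.0237), and -0.56 in GcKO, not called (adjusted p = 0.0578), under quantile normalization, and -0.17 and -0.05 under the same FPKM sum. Clk3 had the largest called rise, 1.79 ± 0.42 in GcKO (adjusted p = 0.00816), from a WT mean of 1.15 FPKM. Of 7 tested decapping partners of the Lsm1 ring, 0 were lower and 2 higher in each of MUT and GcKO, and 5 and 6 higher under the same FPKM sum. The largest called rise was that of Edc4, the scaffold of the decapping complex, at 0.349, 2.37 and 1.36 FPKM in WT, 5.13, 6.8 and 5.55 in MUT and 10.6, 6.68 and 5.56 in GcKO (1.62 ± 0.37 and 1.92 ± 0.37, adjusted p = 0.0072 and 0.00256, limma). It was higher in both under all 4 scalings. Of 14 Prp19 complex and step factors only Bud31 was called as deposited, lower at -0.92 ± 0.17 in MUT and -0.90 ± 0.17 in GcKO, and it was 0.07 and 0.13 under the same FPKM sum, where 10 and 8 of these genes were higher. Of 17 hnRNP genes, 2 were lower in each and 1 and 2 higher, with Hnrnpd the largest called rise at 1.61 ± 0.26 in MUT (adjusted p = 0.00081) and Hnrnpa0 the largest called fall at -1.06 ± 0.30 (adjusted p = 0.0242), which was -0.13 under the same FPKM sum. Under that scaling 0 hnRNP genes were lower and 10 were higher in MUT and 9 in GcKO.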

How the data were processed

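Transcripts of 12 libraries of 20 GV oocytes each were read as 150-nt paired reads. Per the submitters' processing notes, TopHat2 2.0.13 and the mm10 build were used, and the authors deposited FPKM values per gene made with Cufflinks 2.2.1 and Cuffnorm. The gene annotation and strand setting are not given in the sources used here. The labels name Smart-seq2 amplification, with NEBNext Ultra as the library kit in the sample protocols and KAPA Hyper Prep in the series' design text, and which kit was used is not clear. The deposited table also holds 18 columns of the authors' 6 Cuffdiff comparisons (fold changes on the log2 scale with their p-values and q-values), which were not used. From the FPKM values, log2(FPKM + 1) of the 11233 genes with at least 1 FPKM in at least 1 library was fitted with limma 3.58.1 (R 4.3.3), variance trend included, in 1 model of all 12 libraries with the 4 groups as terms, and p-values were adjusted by Benjamini-Hochberg over all genes (called under 0.05, two-sided). The ± after a log2 difference is its SE, and elsewhere SD. The fold changes understate those of low transcripts because of the pseudocount. The script was tested on simulated data with independent spread per gene. Those data held no group difference in FPKM sum and no trend with abundance, so that test does not bear on the scaling. FPKM values hold no counts, so depth and counting error per value are unknown. No 2 of the 66 library pairs were identical.

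Values per library are given for the 2 members highest in WT in each family, for the largest called differences that did not overlap WT or were called between mutants, and for Lsm14b and Srsf3. Values per library of Snrpd3, Clk1 and Edc4 were added after they were seen. From each other list, the called genes with the largest rise and fall are named. The members and lists were chosen with earlier results of these data known. Promoters are RefSeq (GRCm38.p6) and transcripts GENCODE M21. Alternatives were other scalings, filters, pseudocounts and models, corrections for length (loess span 0.5) and, added after seeing the data, for mean abundance, and leaving out each library. Replicate numbers 4 to 6 are shared by WT and AmcKO, and 1 to 3 by MUT and GcKO. What these numbers mark is not given in the sources used here. Each comparison of MUT or GcKO with WT or AmcKO crosses the number sets, so genotype and number set cannot be told apart there.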

Additional observations from a re-analysis of the deposited data

Results flagged for a closer look

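Differences between a knockout or mutant and AmcKO, whose oocytes keep the floxed alleles, were called for 9 member and comparison pairs, which means that the effects relative to the same WT libraries differed by limma's test. In GcKO these were Srsf10 at -0.95, Snrpa1 at -0.92, Lsm3 at -0.73 and Snrpb2 at -0.69 on the log2(FPKM + 1) scale. In MUT they were Srsf5 at -1.05, Lsm5 at -1.01, Srsf10 at -0.89, Snrpa1 at -0.76 and Snrpd2 at -0.66. Srsf10 was the member whose mean was higher in AmcKO (42.3 ± 6.98 FPKM) than in WT (34 ± 5.47, SD, n = 3), and the others had means between those of WT and MUT or GcKO. Quantile normalization kept 3 of the 9 calls (Srsf10 in both and Srsf5 in MUT), and the same FPKM sum kept 0 and gave 12 members higher in GcKO and 13 in MUT. Without AmcKO replicate 5, Srsf10 kept its call in both GcKO and MUT, and every other pair lost its call. The adjusted p of the lost pairs (limma) ran from 0.0705 for Srsf5 in MUT to 0.138 for Snrpd2 in MUT and Lsm3 in GcKO. The FPKM sums of the AmcKO libraries, 883256 to 1107925, lay between those of WT and those of MUT and GcKO, and their part in these differences was not tested.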

How the results depend on the processing

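Median-of-ratios scaling and a pseudocount of 0.1 left all counts within 1.5 times. The cause of the changes below was not tested. With quantile normalization 3 members were lower and 4 higher in MUT and 3 and 1 in GcKO, and 1 and 2 were called against AmcKO in GcKO and MUT. With the same FPKM sum the counts were 1 and 17 in MUT, 0 and 14 in GcKO, and 12 and 13 against AmcKO, all higher. With a fold over 2 they were 5 lower in each of MUT and GcKO, and 0 and 2 against AmcKO. Without the variance trend, 9 were lower and 1 higher in GcKO, and 0 and 2 were called against AmcKO. After the loess correction for mean abundance, chosen after seeing the data, 3 were lower and 2 higher in MUT, 3 and 1 in GcKO, and 0 and 2 against AmcKO. With a mean of at least 5 FPKM, 0 were higher in MUT and 7 and 9 were called against AmcKO. With only 2 groups in the fit, 2 were higher in MUT and 0 called between GcKO and AmcKO, and MUT against AmcKO gave 2 with no filter and 9 with the length correction. For the fold, trend, filter, length and 2-group settings, the shares of all tested genes were not counted.

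Leaving out each of the 6 libraries of a comparison gave 8 to 10 lower and 0 to 1 higher in MUT, 9 to 14 lower and 0 to 2 higher in GcKO, 0 to 1 lower and 0 higher in AmcKO, 0 between GcKO and MUT, 1 to 5 between GcKO and AmcKO and 0 to 4 between MUT and AmcKO. The counts farthest from those reported came without MUT replicate 3 (8 lower) and WT replicate 4 (0 higher) in MUT, WT replicate 6 in GcKO (9 lower, with Sf3b2 and Srsf1 the 2 higher), GcKO replicate 1 (1 against AmcKO) and MUT replicate 2 (0 against AmcKO). Without AmcKO replicate 5, 13 members were lower in MUT and 16 in GcKO than in WT, beside 1311 and 1338 of all tested genes. With any of the 6 libraries of the comparison left out, 8 members stayed lower in MUT and 9 in GcKO. All tested genes were counted only for the fit without AmcKO replicate 5, so no share stands beside the other counts. Whether these members stay called more often than genes in general was not tested.

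Among members with values per library, differences that turned positive under the same FPKM sum were, in MUT, Snrpd2 0.11, Lsm3 0.12, Lsm14b 0.93, Snrpb2 0.22, Sf3b5 0.38, Srsf3 0.58 and Srsf10 0.38. In GcKO they were Snrpe 0.02, Snrpd2 0.18, Lsm3 0, Lsm6 0.02, Snrpb2 0.11, Sf3b5 0.21, Srsf3 0.49 and Srsf10 0.37. Against AmcKO they were Lsm3 0.01 and Snrpb2 0.05 in GcKO, and Snrpd2 0.03, Sf3b5 0.55 and Srsf3 0.6 in MUT. Quantile normalization turned Lsm3 to 0.36 and Sf3b5 to 0.24 in MUT, Snrpd2 to 0.05, Lsm3 to 0.15 and Sf3b5 to 0.07 in GcKO, and Lsm3 to 0.09 between GcKO and AmcKO. Snrpd1, lower in both as deposited, was called higher at 0.47 in MUT and 0.44 in GcKO under the same FPKM sum, and stood at 0.37 (called) and 0.33 under quantile normalization. The abundance correction turned Snrpd2 to 0.09, Lsm3 to 0.32 and Sf3b5 to 0.28 in MUT, Snrpe to 0.02, Snrpd2 to 0.18, Lsm3 to 0.22 and Sf3b5 to 0.14 in GcKO, and Lsm3 to 0.13 between GcKO and AmcKO.

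With the replicate block, 0 members were lower and 0 higher in AmcKO and 0 were called between GcKO and MUT, so no call changed, and same-numbered libraries correlated at -0.04 to 0.04. No paired analysis was possible because the groups share no numbers in the other comparisons. FPKM without counts limit what can be said of members under 10 FPKM, of which 1 of 13 was called against WT.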
